A study of Mus musculus with 2 samples.

Results

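The clustered protocadherins are cell-surface cadherins encoded in 3 neighbouring gene clusters, alpha, beta and gamma, on mouse chromosome 18. Members were taken as the rows of the deposited gene tables whose Ensembl identifier maps to a protein-coding gene with a Pcdha, Pcdhb, Pcdhga, Pcdhgb or Pcdhgc symbol, or Pcdhac1 or Pcdhac2. They numbered 57 of 43346 rows with Ensembl identifiers: 12 variable alpha, 22 beta, 12 gamma A and 6 gamma B members, and 5 C-type members. All 57 were kept, and Pcdhgb8 was left out because the annotation calls it a polymorphic pseudogene. On mm10 the alpha cluster spans 36930184 to 37187661, the beta cluster 37264938 to 37524479 and the gamma cluster 37661793 to 37841873.

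RNA came from 2 pools of 30 laser-captured Purkinje cells, the output neurons of the cerebellar cortex, from adult B6CASTF1/J males aged 14 months. This strain is a first-generation cross of C57BL/6 and castaneus mice, and neither pool received a treatment that the labels name. The pools form a single group, so they can be compared only as libraries. Both carry the same donor identifier, and the labels do not say whether they came from a single animal, so the standard deviation (SD, n = 2) may be technical.

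In the alpha and gamma clusters, each member has its own promoter and a large first exon that encodes the extracellular and transmembrane parts, spliced to constant 3′ exons shared by the whole cluster. Beta members have no constant exons. In neurons, variable members are known to be chosen by a stochastic promoter choice that involves CTCF and cohesin, whereas C-type members are more often expressed in every cell, and the proteins bind homophilically and serve in self-avoidance of dendrites, Purkinje cell dendrites among them.

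The libraries held 31437230 and 28591242 expected counts on Ensembl genes, an expected count being an estimated number of reads. All 10 Purkinje cell markers were detected in both pools, with a summed TPM (a level scaled to library size and corrected for transcript length) of 58173 in pool 1 and 55516 in pool 2. Markers of Bergmann glia and astrocytes, 9 of 10 detected in both pools, summed to 2183 and 3890, and 4 of 5 red blood cell markers were detected in both pools, with sums of 2453 and 16.26. Granule cell markers, 5 of 8 detected in both pools, summed to 33.86 and 44.89. Markers of interneurons, the oligodendrocyte lineage, microglia, vessels and choroid plexus each summed to less than 25 in either pool. No gene of these lists was at 0 in both pools. The glial and red blood cell sums differed between the pools, and their part in the protocadherin values was not tested. In pooled material, fewer cells with an RNA and less RNA per cell cannot be told apart.

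Few clustered protocadherins reached a TPM of 1. In both pools 5 of 57 did, against 30.3% of 21474 protein-coding genes. They were Pcdhgc4, Pcdhac2, Pcdha4, 1 of 2 entries under the symbol Pcdha11, and Pcdhb9. Pcdhb16 passed in pool 1 only, Pcdhb6 and Pcdhb12 in pool 2 only, and 49 members in neither. At the low end, 8 members had 0 counts in both pools and 13 in 1 pool, and a count of 0 allows up to 3 counts by counting error alone. A second estimate by the authors, given below, was above 0 for some of these members.

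**Figure D1:**
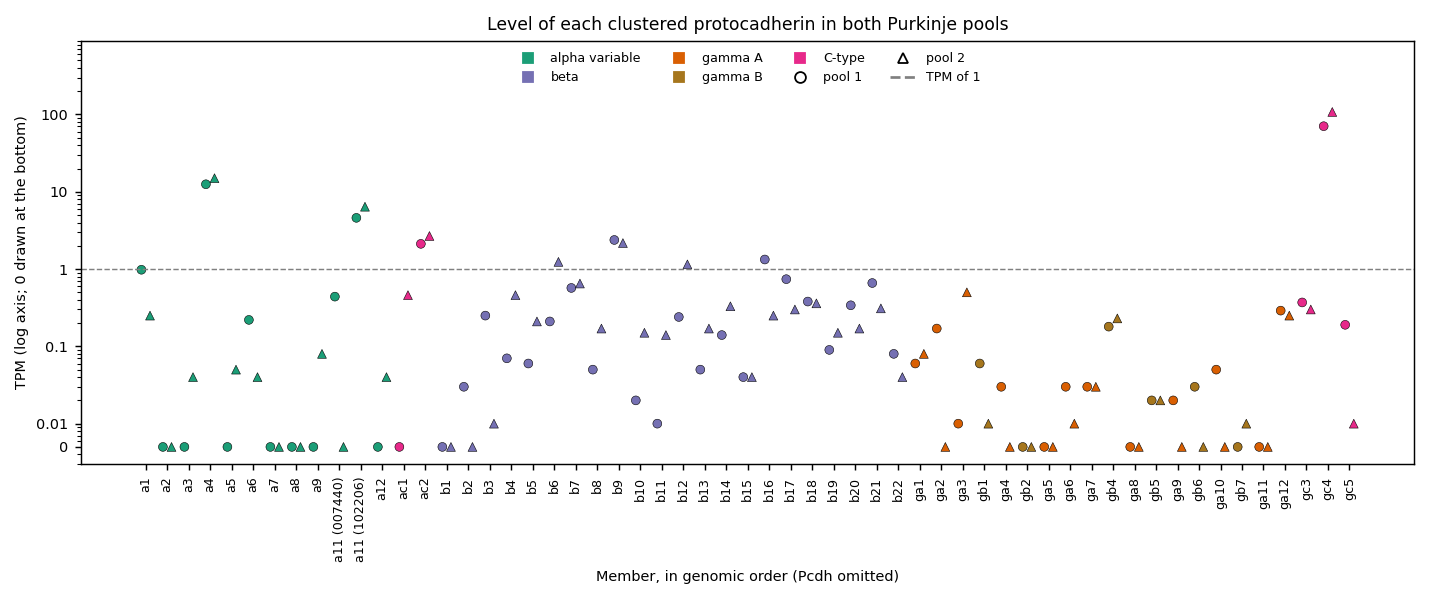
Level of each of the 57 members in both pools, in genomic order, as TPM on a log axis with values of 0 drawn at the bottom; circles are pool 1, triangles pool 2, and colours the classes. Pcdhgc4 stands highest at 70.54 and 107.85, and most members lie below the dashed line at a TPM of 1.

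The summed TPM of all members was 100.7 in pool 1 and 142.8 in pool 2. C-type members held 73.22 and 111.3 of it, variable alpha members 18.75 and 21.91, beta members 7.74 and 8.47, gamma A members 0.69 and 0.87, and gamma B members 0.29 and 0.27. The C-type share of the summed TPM was thus 72.7% and 77.9%, or 75.3% ± 3.69 (SD, n = 2), although only 5 of the 57 genes are C-type. That share rests on a single transcript: without Pcdhgc4-203, described below, it was 11.2%.

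Among C-type members, Pcdhgc4, known for its part in neuronal survival, reached 70.54 TPM in the first pool and 107.85 in the second (identifier ENSMUSG00000023036.10, 37815079 to 37841873). Its mean was 89.2 ± 26.4 (SD, n = 2), from 6244.21 and 8225.59 expected counts. Pool 2 was the higher by a log2 ratio of 0.34 after TMM scaling, with adjusted p = 1.82e-43 by the exact binomial test. By spike-in totals pool 2 was the lower, with a log2 ratio of -0.43, where the median over all tested genes was -0.78. The test asks whether 2 libraries differ beyond counting error, and does not compare conditions.

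Pcdhac2, known for its part in the spacing of serotonergic axons, had 2.12 and 2.68 TPM, from 498.43 and 543.02 counts. These counts did not pass the test (log2 ratio 0.06, adjusted p = 0.554, exact binomial). Pcdhgc3, a gamma C-type member that has been linked to Wnt signalling through Axin1, had 0.37 and 0.30 TPM. Its 51.14 and 36.05 counts did not pass either (adjusted p = 0.127, exact binomial). They lay in Pcdhgc3-202, annotated as nonsense-mediated decay (28.16 and 36.05), and in the retained intron Pcdhgc3-203 (22.98 and 0). The protein-coding transcript Pcdhgc3-201 was at 0 counts in both pools. The ratio of Pcdhgc3, higher in pool 1, was 1.48 with a 95% exact counting interval of 0.944 to 2.33. It was called by spike-in totals (log2 ratio -1.33, adjusted p = 5.55e-05, exact binomial), a scaling that moved the median over all tested genes to -0.78.

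The remaining C-type members were uneven. Pcdhac1 was listed at 0 counts in pool 1 and 84.99 in pool 2, and the exact interval of that ratio, for counting error only, began at 21.6-fold. The authors' posterior mean counts, a second estimate of the same reads, were 6.01 and 91.81, a smaller log2 ratio of 3.77. Pcdhgc5 had 12.78 and 1.63 counts. By the rounded counts of 13 and 2 the ratio was 6.77, with an interval of 1.53 to 61.8.

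In the alpha cluster the counts totalled 3022.31 in pool 1 and 3024.62 in pool 2, and Pcdha4 held 67.9% and 70.0% of them. Pcdha4 (ENSMUSG00000104252.1, 36952648 to 37187661) had 12.51 and 15.0 TPM, a mean of 13.8 ± 1.76 (SD, n = 2), from 2051.23 and 2115.96 counts. The pools did not differ past the threshold, with a log2 ratio of -0.01 and adjusted p = 0.824 by the exact binomial test. Scaling by total counts (0.18) or by spike-in totals (-0.78) gave a called difference, in opposite directions, and Pcdhac2 did the same (0.26 and -0.71). Those scalings moved the median over all tested genes to 0.19 and -0.78, so these calls are not particular to the 2 members. The second variable alpha member in level was the Pcdha11 entry ENSMUSG00000102206.1, with 4.6 and 6.41 TPM from only 126.6 and 190.91 counts.

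Most of its TPM lay in Pcdha11-204, a transcript of 625 bases that held 93.86 and 109.83 counts. Of these bases 205 belong to the entry itself and 420 lie in exons shared with other members. Whether the reads in the shared exons belong to this entry was not tested. The other entry that the annotation also calls Pcdha11, ENSMUSG00000007440.10, starts at 37005203, where RefSeq's table of the same build places Pcdha10. Its counts were 93.47 in pool 1 and 0 in pool 2, and the interval of that ratio began at 25.7-fold. The posterior mean count in pool 2 was 6.79, and posterior means gave a smaller difference, with a log2 ratio of -3.78.

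Pcdha1 had 205.43 counts in pool 1 and 42.58 in pool 2, 4.97-fold apart with an interval of 3.56 to 7.07. The expected counts lay all on Pcdha1-201 in pool 1 and all on Pcdha1-202 in pool 2. Posterior means split them over Pcdha1-201 and Pcdha1-202: 132.95 and 75.79 in pool 1, and 19.99 and 38.89 in pool 2. By posterior means the log2 ratio of Pcdha1 was -1.88, beside -2.32 by expected counts. Pcdha9 had 0 and 15.3 counts, a ratio whose interval began at 3.44-fold, and posterior mean counts of 5.40 and 21.18. Pcdha2, Pcdha7 and Pcdha8 had 0 expected counts in both pools. Their posterior mean counts were 8.03 and 9.26, 4.73 and 6.17, and 4.73 and 7.1, so these zeros depend on the estimate used.

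Expected counts that are not whole mark reads divided between genes, whatever sequence those genes share. The part of the shared exons in this was not tested. Of the 37 members with at least 10 counts in total, 22 (59.5%) had a count more than 0.01 from a whole number in at least 1 pool, against 22.7% of all 14495 genes with that many counts. This held for 6 of 6 variable alpha members, 4 of 5 C-type members, 4 of 5 gamma A members and 1 of 2 gamma B members. For the 19 beta members it held for 36.8%. The authors' posterior SD, as a share of the posterior mean, had a median of 28.8% over variable alpha members and 0% over beta members. The median was 22.1% over gamma A members, and 15.4% over gamma B as well as over C-type members. For the leading members the share was small: 3.08% and 2.93% for Pcdha4, and 0.204% and 0.139% for Pcdhgc4. A small share gives the precision of the authors' estimate, and whether the reads belong to these members was not tested.

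The leading gamma transcript was nearly all shared sequence. Pcdhgc4-203 is 2272 bases long, of which 153 belong to Pcdhgc4 and 2119 to exons that other gamma members use. Of its 100-base windows 6.95% occur in no other gene, and 2018 of the 2173 also occur in genes that are no members. It held 6192.69 counts in pool 1 and 8124.01 in pool 2, or 95.6% and 96.4% of all counts in the gamma cluster. The full-length Pcdhgc4-201, with the large first exon, held 13.67 and 1.77 counts.

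Pcdhgc4-202, which is annotated as a retained intron and holds no bases shared with other members, had 37.85 and 99.81 counts. All 9 gamma transcripts without shared bases together held 117.83 and 151.81 counts, 1.82% and 1.80% of the cluster. The summed counts of the gamma cluster were 6477.17 and 8429.37. How shared reads were divided among its members moves the level of Pcdhgc4 and not this sum, but a division with genes that are no members would move the sum too. Of such genes, Pcdhgb8 had 3.27 and 1.64 counts and Gm37013, annotated from the alpha into the gamma cluster, had 4.56 and 0.

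In the alpha cluster the leading transcript was Pcdha4-201, 4129 bases long with 1693 of its own and 2436 shared. It held 2038.39 and 2108.47 counts, 67.4% and 69.7% of the cluster, and 2.28% of its 100-base windows occur in no other gene. Of its 4030 windows, 1594 also occur in transcripts of genes that are no members, on either strand. The longer Pcdha4-202, 5363 bases with 2503 of its own, held 12.84 and 7.49 counts. Gm42416, annotated from within Pcdha4 into the gamma cluster, was at 0 counts in both pools. No alpha transcript without shared bases had a count in either pool.

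**Figure D2:**
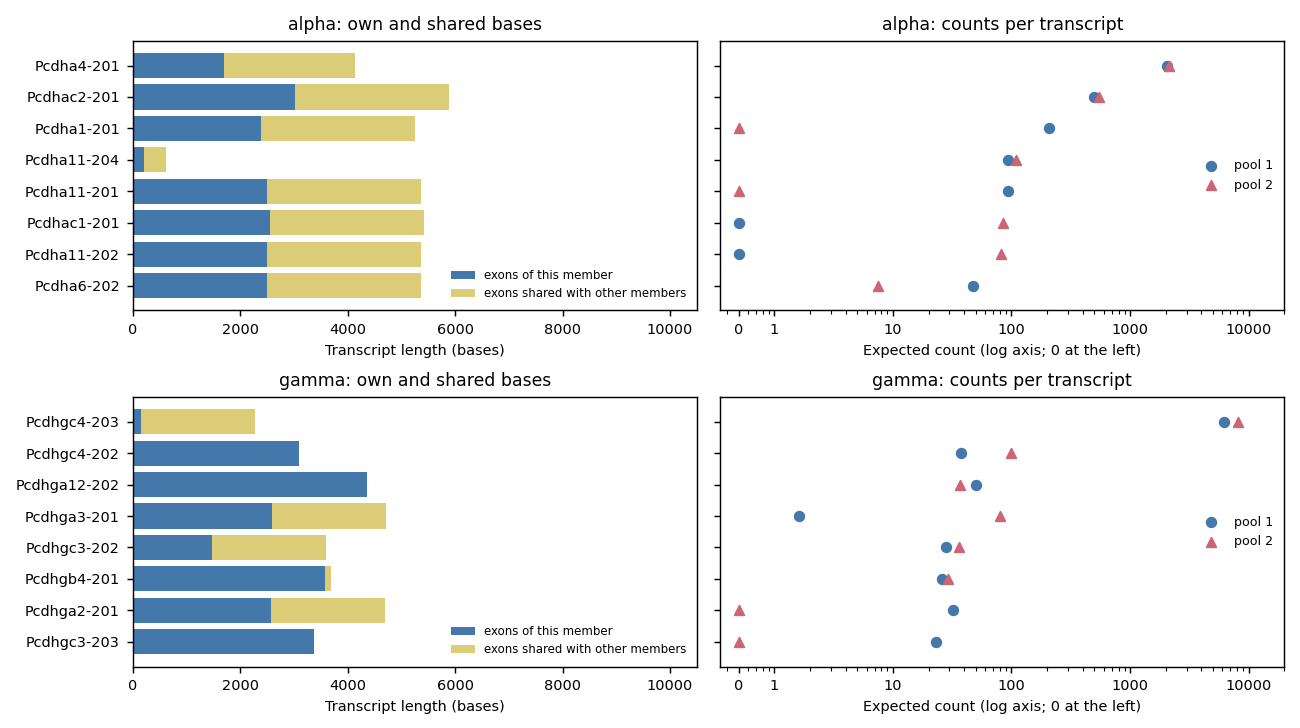
The 8 alpha and 8 gamma transcripts of highest mean count: bars give bases of the member itself and bases in exons shared with other members, and points give expected counts in pool 1 (circles) and pool 2 (triangles) on a log axis. Pcdhgc4-203 has 153 bases of its own and the highest counts of the gamma cluster, 6192.69 and 8124.01.

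Limiting the class shares to transcripts without shared bases gave a C-type share of 6.14% in pool 1 and 10.0% in pool 2. The only C-type transcripts of that kind are the retained introns Pcdhgc4-202 and Pcdhgc3-203. Since all other C-type transcripts are left out by this limit, these values do not estimate the C-type share. Leaving out both Pcdhgc4 and Pcdha4 gave 15.2% and 17.3%. Whether the shared-exon reads came from Pcdhgc4, from other gamma members or from shortened RNAs was not tested.

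The other gamma members were low, each under a TPM of 1. Pcdhga12, the last variable gamma A member, had 50 and 37 counts, all in the retained-intron transcript Pcdhga12-202, and these did not pass the test (adjusted p = 0.187, exact binomial). Pcdhgb4 had 26 and 29 counts, all in the processed transcript Pcdhgb4-201 (adjusted p = 0.944, exact binomial). Pcdhga1 had 10.36 and 9 counts. The intervals of these ratios, higher over lower pool, were wide: 0.902 to 2.21 for Pcdhga12, 0.609 to 1.89 for Pcdhgb4 and 0.423 to 3.22 for Pcdhga1. Pcdhga12 was called by spike-in totals (log2 ratio -1.26, adjusted p = 0.000134, exact binomial), where the median over all tested genes was -0.78.

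Other members had most of their counts in 1 pool. Pcdhga3 had 1.61 and 80.2 counts. By the rounded counts of 2 and 80 the ratio was 38.4, with an interval of 10.3 to 323. Pcdhga2 had 32.24 counts in pool 1 and 0 in pool 2, and the interval of its ratio began at 8.53-fold. Pcdhgb1 had 11.22 and 1.63 counts, and its call (adjusted p = 0.0300, exact binomial) was lost by total counts (0.0523) and by posterior means (0.0502). Pcdhgb6, with 6.5 and 0 counts, and Pcdhgb5, with 4 and 3, were too low to test. Of the gamma A members 3 had 0 counts in both pools, and of the gamma B members 1.

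Beta members give the view least touched by shared exons, since most of their transcripts are a single exon. The exception with exons in common is Pcdhb21 with Pcdhb22, which share 455 bases. Pcdhb12 has 37.7% of its windows to itself, and the others occur, on either strand, in genes that are no members. The authors' posterior SD of its count was 1.56% and 0.0254% of the posterior mean, and the antisense gene Gm37446, which overlaps it, was at 0 counts in both pools. The class totalled 1260 counts in pool 1 and 1112 in pool 2, and 21 and 20 of its 22 members had a count.

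Pcdhb9 led the class in both pools, with 286.22 and 224 counts and 2.38 and 2.17 TPM, a mean of 2.27 ± 0.148 (SD, n = 2). It differed by 1.33-fold, higher in pool 1 (interval 1.11 to 1.59, adjusted p = 0.00307, exact binomial), and this did not pass under scaling by total counts (adjusted p = 0.141, exact binomial). Behind it the order changed between the pools. Pcdhb16 was the second by count in pool 1, with 276 counts there and 45 in pool 2, 6.39-fold apart (4.65 to 8.96).

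In pool 2 the second was Pcdhb6, with 31 counts in pool 1 and 158 in pool 2, 4.89-fold apart (3.31 to 7.44). Pcdhb12 had 29 and 118 counts, 3.91-fold apart. Pcdhb3 had 38 counts in pool 1 and 1 in pool 2, a ratio of 39.6 with an interval of 6.69 to 1604. No beta member besides Pcdhb9 was at a TPM of 1 in both pools.

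The top 3 beta members held 55.5% and 45.0% of the counts of the class. The inverse Simpson index, the number of equally abundant members that would give the same concentration, was 7.45 and 10.0. For the alpha cluster it was 2.02 and 1.90, and for the gamma cluster 1.08 and 1.05. The alpha and gamma indices rest on the assignment of shared reads, so they and the beta index were not compared.

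**Figure D3:**
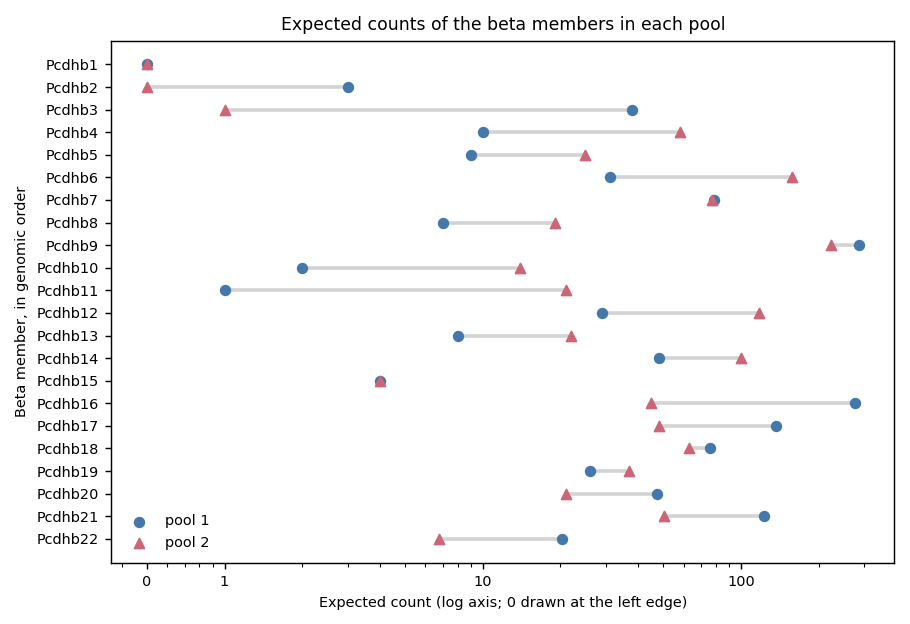
Expected counts of the 22 beta members in pool 1 (circles) and pool 2 (triangles) on a log axis, in genomic order, with values of 0 at the left edge. Pcdhb9 is high in both pools at 286.22 and 224, whereas Pcdhb16 (276 and 45) and Pcdhb6 (31 and 158) lie far apart in opposite directions.

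Over all members, 27 of the 37 with at least 10 counts were called different between the libraries, 73.0%, where 65.1% of all 14495 tested genes were called. In direction, 14 were higher in pool 1 (32.1% of all genes) and 13 in pool 2 (33.0%). Scaling by total counts gave 11 and 16, and by spike-in totals 21 and 7. All tested genes shifted too, to a median log2 ratio of 0.19 by total counts and -0.78 by spike-in totals. Of all tested genes 65.7% and 75.3% were then called. The share of 73.0% lies near the background, and neither it nor the split by direction is a result about the members. The 20 members with fewer counts were not tested, and among those tested a member absent from 1 pool could enter only through the other.

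Differences past 2-fold were counted as well. They were called for 23 of the 37 members, against 28.8% of all tested genes, and for 13 of 19 beta members (68.4%). Low counts alone widen ratios, so the beta members were also set beside the 8801 genes whose summed counts lay in the same range, 16 to 510. Of these genes 38.3% were called and past 2-fold, and 59.6% were called at any size, beside 15 of the 19 beta members.

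The median absolute log2 ratio was 1.37 over the 19 beta members and 0.79 over those 8801 genes, and it was 1.56 over all 37 tested members and 0.59 over all tested genes. Setting counts of 0 to the floor of 3 left these medians as they were. The signed median of the members was -0.09, beside -0.01 over all tested genes. These are descriptions of the members that passed the count filter, not of all 57.

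**Figure D4:**
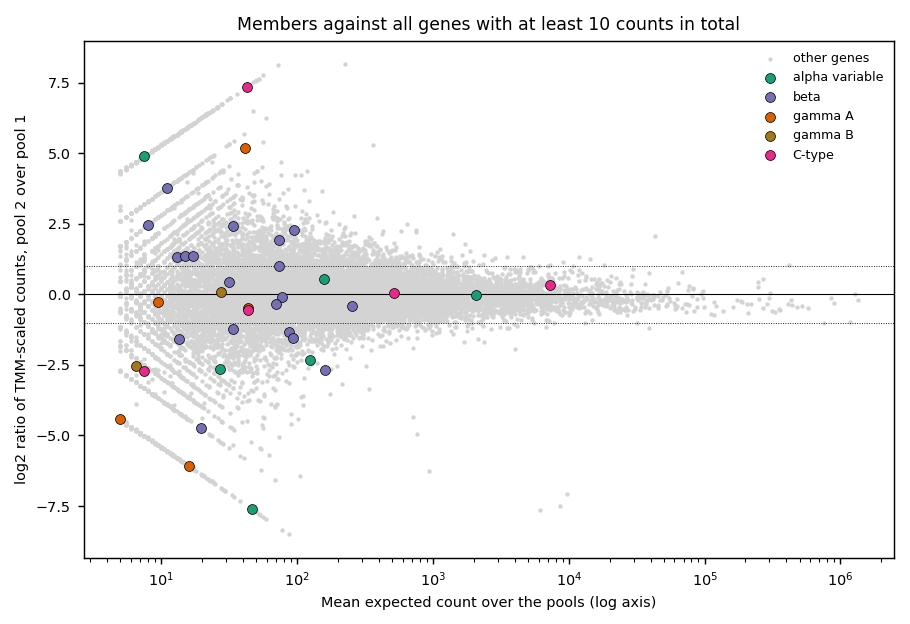
The log2 ratio of TMM-scaled counts, pool 2 over pool 1, against the mean expected count on a log axis, for all 14495 genes with at least 10 counts in total (grey) and the 37 tested members (coloured by class); dotted lines mark 2-fold. The beta members lie on both sides of 0 with a median absolute log2 ratio of 1.37.

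Across the 19 tested beta members, Spearman's rho between the TPM values of the pools was 0.51, and over the 8801 genes of like count it was 0.71. With the untested beta members it was 0.65. It was 0.61 over the 14 genes of the alpha cluster and 0.55 over the 21 of the gamma cluster. Genes are not independent replicates, and members of a cluster share exons. Between the order of the members along the chromosome and mean TPM, rho was 0.23, 0.16 and 0.16 in the alpha, beta and gamma clusters. Whether these values differ from 0 was not tested.

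Within the span of the clusters lay 28 annotated genes that are no members, and 13 of them were at 0 in both pools. Taf7, a subunit of the general transcription factor TFIID, had 152 and 137 counts and was the single one at a TPM of 1 or more in both pools (1.17 and 1.22). The antisense gene BC037039, which overlaps the start of Pcdhgc3, had 51.9 and 75 counts, and Gm10545, antisense across Pcdha11, had 39.05 and 2.36. Strand use in the counting is not stated in the labels or headers, so reads of such genes and their antisense partners cannot be told apart.

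Protocadherins outside the clusters were, in part, at the level of the leading alpha member. Of 12 listed, 6 were at a TPM of 1 or more in both pools, led by Pcdh9 with 13.74 and 14.15 and Pcdh7 with 11.63 and 15.31. Pcdh19 had 1.83 and 1.34, and Pcdh20 had 1.3 and 1.61. Of 9 tested, 5 were called higher in pool 1 and 1 in pool 2, where 65.1% of all tested genes were called, 32.1% and 33.0% by direction. The called counts of the lists that follow are read against these shares, and none is given as a result about its list.

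Of 20 genes for promoter choice and chromatin at the clusters, 10 were at a TPM of 1 or more in both pools, beside 30.3% of protein-coding genes. Of the 20 tested, 7 were called higher in pool 1 and 10 in pool 2 (65.1% of all tested genes called). Wapl, the cohesin release factor, led with 8.98 and 12.88, and the cohesin subunits followed: Rad21 with 6.75 and 6.51, Smc1a with 4.02 and 6.68, and Smc3 with 3.21 and 5.06. Ctcf, which binds the protocadherin promoters, had 1.92 and 1.74, and Dnmt3b, a DNA methyltransferase, had 0.09 and 0.05.

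Of 17 cytoplasmic partners, 12 were at a TPM of 1 or more in both pools, and of the 17 tested 5 were called higher in pool 1 and 7 in pool 2 (65.1% of all tested genes called). The GTPases Rac1 (52.52 and 75.92) and Rhoa (44.36 and 68.76) led, followed by the WAVE complex subunits Brk1 (43.46 and 52.4) and Nckap1 (30.21 and 36.41). The kinases Ptk2 and Ptk2b, which bind alpha and gamma protocadherins, had 1.48 and 2.55 and 0.51 and 0.94.

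Of 9 genes for the proteases that cleave protocadherins, 6 were at a TPM of 1 or more in both pools, and of the 9 tested 2 were called higher in pool 1 and 4 in pool 2 (65.1% of all tested genes called). The gamma-secretase subunit Psenen had 147.19 and 225.37 TPM, and Adam10, the metalloprotease, had 43.26 and 33.88. Psen2 had 3.31 and 4.82, and Aph1b had 2.48 and 3.86. Of 13 other adhesion and dendrite-patterning genes, 4 reached a TPM of 1 in both pools: Robo2 (4.29 and 4.1), Celsr2 (4.52 and 3.38), Megf11 (3.35 and 3.86) and Megf10 (1.83 and 2.93). Of the 12 tested in that list 6 were called higher in pool 1 and 1 in pool 2 (65.1% of all tested genes called), and Sdk1 was at 0 counts in both pools.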

How the data were processed

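Gene and transcript tables of 2 Purkinje cell pools were used. They were made on mm10 with GENCODE M4, per the authors' text files. No aligner or quantifier is named in the labels or headers. Per the file headers, the authors give expected counts (not whole where reads are shared), TPM, FPKM, posterior mean and posterior SD values, and each transcript as a percent of its gene; FPKM and posterior means served as alternatives. GENCODE M21, a later release on that build, gave symbols, types, exons and coordinates.

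Expected counts were rounded and compared between the libraries by a two-sided exact binomial test (SciPy 1.17.1) given TMM-scaled totals (edgeR 4.0.16), over the 14495 genes with at least 10 counts in total, adjusted by Benjamini-Hochberg and called below 0.05. The two-sided p doubled the smaller tail. After its results had been seen, a second form, summing all outcomes no more likely than the observed, was also run; the first form was kept and both are given in the closing section. On simulated data the test was checked at 2-fold and 4-fold changes. The simulated counts held counting error only, so the check does not cover other differences between libraries or the division of shared reads. Log2 ratios added 0.5 to each unrounded count. Folds printed with an interval used rounded counts and added nothing. Intervals are exact (95%) and cover counting error only, since no molecular identifiers are named.

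Other scalings (DESeq2 1.42.0 size factors, total counts, spike-in totals), filters and count estimates were tried. Named members were all C-type members, the 4 highest variable members of each class and the 3 largest called ratios in each direction. Of each further list the 4 highest genes were named. Other genes, among them Ctcf, Dnmt3b, Ptk2, Ptk2b and Sdk1, were named outside this rule. Members and lists were chosen with earlier results of these data known. Sequences are not printed. The rows with numeric identifiers, 0.000412% and 0.000194% of counts, were left out.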

Additional observations from a re-analysis of the deposited data

How the results depend on the processing

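No paired analysis was possible because the pools form a single group. The count of 5 detected members became 18 at a TPM of 0.1 and 2 at a TPM of 5, and was 6 to 7 in a single pool. The C-type share of 75.3% was 67.0% by counts and 72.7% to 77.9% in a single pool. It was 11.2% without Pcdhgc4-203, 16.2% without Pcdhgc4 and Pcdha4 and 8.09% over transcripts without shared bases. These 3 settings were chosen after seeing the data. The last keeps no C-type transcripts but retained introns, so it does not estimate the C-type share. The count of 27 called members ranged from 23 (past 2-fold) to 30 (of 49 with at least 1 count). The shares of all tested genes in these settings were 28.8% and 51.5%. The form of the two-sided binomial p was settled after seeing the data: the doubled tail called 9435 genes (65.1%), 27 members, 23 past 2-fold and 13 beta members past 2-fold, and the other form 9536 (65.8%), 28, 24 and 14, adding Pcdhb8.

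The members' median log2 ratio of -0.09 was 0.10 by total counts, -0.86 by spike-in totals, 0.12 by posterior means and 0.06 as a difference of log2(TPM + 1); all genes shifted to 0.19 by total counts and -0.78 by spike-ins. Their median absolute ratio of 1.56 was 1.95 without the count filter, 1.33 by posterior means and 0.22 on the log2(TPM + 1) scale, which compresses low levels, and that of beta members was 1.52 by total counts and 1.50 by spike-ins. By spike-in totals Pcdhgc4 (-0.43) and the Pcdha11 entry ENSMUSG00000102206.1 (-0.24) changed sign. A change of scaling moves the ratio of every gene by the same amount, and both stayed above the median of all genes (-0.78). Why the spike-in totals differed between the pools was not tested. Pools of 30 cells and 2 libraries limit precision.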
